A study of Mus musculus with 18 samples.

Results

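The m6A peaks that differed between the uteri of LPS-treated and vehicle-treated pregnant mice were described here, gene by gene and by function. Members were all complete rows of the 2 deposited tables of this comparison, one of peaks higher in LPS (up) and one of peaks lower in LPS (down), and they numbered 18437 of the 41084 peaks in the 4 tables of the series. The up table held 12023 peaks over the whole genome, whereas the down table held 6414 complete rows and broke off within chromosome 10. Directions were therefore compared on chromosomes 1 to 9, where 6220 peaks were up and 6259 were down. Wild-type ICR females, 8 weeks old, were studied to day 5 of pregnancy. The Veh group received saline by intraperitoneal injection from day 1 to day 4. The LPS group received the same saline and, on days 3 and 4, lipopolysaccharide (LPS, a bacterial cell wall component that provokes inflammation) at 0.5 mg/kg, injected 30 minutes after the first injection. Each group had 3 input and 3 immunoprecipitated (IP) libraries of whole uterus. The remaining group of the series, Mel+LPS, received melatonin in place of saline.

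N6-methyladenosine (m6A) is a methyl mark on adenosines inside messenger RNA. It is placed by a writer complex built around METTL3 and METTL14, removed by the erasers FTO and ALKBH5, and bound by readers such as the YTH domain proteins, which affect how long a transcript lasts and how well it is translated. The mark sits mostly in long exons, near the stop codon and in the 3′UTR, within a short consensus sequence. Around day 5 the mouse uterus receives the embryo, and its epithelium, stroma and muscle change together.

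The score of each peak was a log10 likelihood ratio given by the peak caller for the difference between the groups, and a higher score means a clearer difference, not a larger share of methylated transcripts. There was 1 score per peak and comparison and none per mouse, so no test over mice could be made, and the intervals given are 95% Wilson intervals that cover counting error only. A change in the amount of a transcript, in the share of it that was methylated, and in the number of cells that make it cannot be told apart in these tables.

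A peak was given to a host gene when its annotation named a gene whose exon or intron holds it, or when its centre lay inside the gene assigned to it. On chromosomes 1 to 9 this placed 4150 up peaks in 2802 genes and 4389 down peaks in 3112 genes. Of these 8539 host peaks, 48.6% were up, and this share is the background for every count below. Among the 6489 genes that hosted a peak in any of the 4 tables on these chromosomes, 43.2% had an up peak and 48.0% had a down peak. The tables list only called peaks, so a gene without a peak may be unchanged, unmethylated or not expressed.

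The short sequences below show what lay under peaks that the results turn on. They are RNA-sense stretches of reference transcripts, written as DNA from 5′ to 3′, with chromosome positions on the GRCm38 (mm10) build. Capitals mark the match to the m6A consensus that was nearest to the peak centre: A, G or T, then A or G, then A, then C, then A, C or T. A match is a description of the letters there and does not show that this adenosine was methylated.

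The first set comes from peaks that were up in LPS. They lay in the coding sequence of Saa3, Igha and Lpar3 and in the 3′UTR of Cxcl13 and Il17rb.
Saa3 (chr7:46714931-46714959, minus strand): ttacttgagcagGGACCacataatcaagg
Cxcl13 (chr5:95960427-95960455, plus strand): acaaactaaaaaAAACCcaatcctgcagg
Il17rb (chr14:29996590-29996618, minus strand): ccgggggaatagAGACTctgaagccttcc
Igha (chr12:113259379-113259407, minus strand): agtctgacacctTAACTggcacaattgcc
Lpar3 (chr3:146240697-146240725, plus strand): tatatttttttcTAACTccctggtcattg

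The second set comes from peaks that were down in LPS, in genes known from epithelium, from the preparation for the embryo and from cell division.
Clca1, highest peak (chr3:145005883-145005911, minus strand): ggctcctggggaTGACTacgaccacggga
Clca1, next peak (chr3:145004702-145004730, minus strand): gggaaatgcaggTGACActaggtttgcac
Aoc1, highest peak (chr6:48908989-48909017, plus strand): catacctgccaaAGACTtccatgaccaat
Aoc1, next peak (chr6:48905881-48905909, plus strand): cacagatgtccaGGACTggagagtggaac
Lcn2 (chr2:32387582-32387610, minus strand): ccccctgcagccAGACTtccggagcgatc
Bmp2 (chr2:133552606-133552634, plus strand): ggctgccacaaaAGACActtggcccgagg
Ptgs2 (chr1:150107711-150107739, plus strand): gactgacattttAGACAttttgaaggccc
Mki67 (chr7:135707724-135707752, minus strand): acttaaggatgaAGACTctcgtgttactg

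Up and down peaks were almost equally frequent. Of the 12479 peaks on chromosomes 1 to 9, 49.8% were up (interval 49.0 to 50.7%), and the share per chromosome ran from 48.1% on chromosome 4 to 51.6% on chromosome 8. The median score was 2.94 for up peaks and 2.65 for down peaks. Scores ran from 1.04 to 101.7 among up peaks and from 1.01 to 221.6 among down peaks. At a score of at least 6 there were 915 up and 792 down peaks, but at a score of at least 50 there were 8 up and 23 down peaks. Those of at least 50 that had a host gene fell in 3 genes up and 4 genes down. Most genes hosted a single peak of a given direction (69.4% of genes with an up peak and 73.8% of genes with a down peak). In both tables a single score recurred: 770 up peaks held the score 3.78 and 735 down peaks held 3.63. These tied scores made up 28.4% of up peaks and 26.4% of down peaks in introns, against 4.86% and 4.92% of peaks in exons and UTRs.

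**Figure D1:**
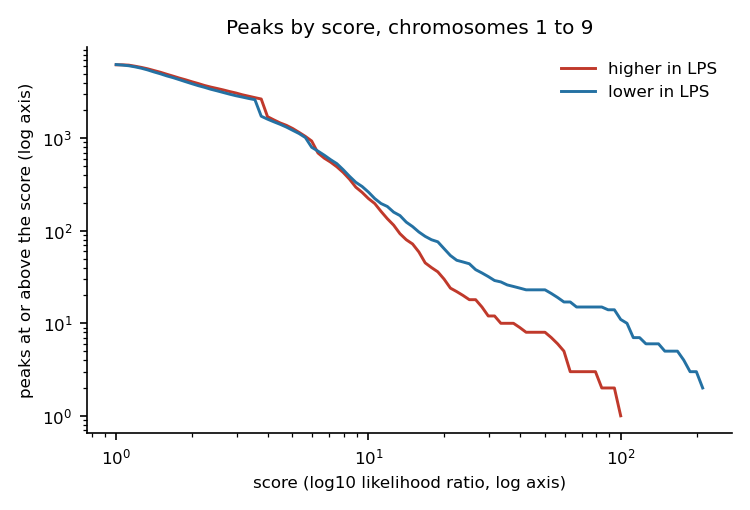
Number of peaks on chromosomes 1 to 9 (vertical, log axis) at or above each score (horizontal, log10 likelihood ratio on a log axis), in red for peaks higher in LPS and in blue for peaks lower in LPS. The curves run together at low scores and part at high scores, where 23 down peaks but 8 up peaks reach 50. Those that have a host gene fall in 4 genes down and 3 genes up.

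The labelled tissue was checked against marker genes of the uterus. Of 14 such markers, 10 had a host peak or a peak on an exon, among them the progesterone receptor gene Pgr, Msx1, Ihh, Foxa2, Hand2 and Ltf. No share over all genes stands beside this count. Markers of trophoblast and embryo had such peaks in 7 of 15, of stroma in 7 of 16 and of endothelium in 7 of 14. The presence of peaks therefore does not by itself identify the tissue. No host peak was listed for Hoxa10, Hoxa11, Lif or Oxtr. Pgr hosted 3 up peaks with scores up to 12.5, whereas Hand2, a stromal transcription factor controlled by progesterone, hosted 3 down peaks with scores up to 2.72. Ihh, the epithelial signal that lies downstream of the progesterone receptor, had an up peak of 3.30 and a down peak of 3.22.

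The genes with the highest up scores were of several kinds, and those with a known part in inflammation or immune cells are given first. Saa3, an acute-phase serum amyloid gene, hosted a peak of 57.7 in its second exon and one of 16.1 at its promoter. A further peak of 94.6 had been assigned to the neighbouring gene Saal1, but its centre lay on an exon of Saa3. Cxcl13, a chemokine that attracts B cells, had a 3′UTR peak of 53.7 and an exon peak of 18.3. Marco, a scavenger receptor of macrophages that binds bacteria, had 4 up peaks with scores from 4.94 to 20.4. All 6 peaks of Mme, which encodes the membrane peptidase neprilysin, were up, lay in exons and scored from 6.92 to 24.2. Il17rb, a receptor chain for interleukin 25, had the highest score of an up host gene outside chromosomes 1 to 9, a 3′UTR peak of 62.8.

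Several other high up scores lay in introns or in predicted genes. The highest of all, 101.7, was a single peak in the first intron of Cdh20, a cadherin. Ctse, which encodes the protease cathepsin E, had 7 up peaks in its first intron with scores from 1.84 to 41.4, beside a 5′UTR peak down at 2.20. Hnmt, the enzyme that inactivates histamine by methylation, had 4 intron peaks with scores from 3.78 to 29.1. Col26a1, a collagen gene, had an intron peak of 20.9 and a 3′UTR peak of 8.20. The predicted genes Gm5150 and Gm30483 reached 28.2 and 21.05, and Gm40578 reached 39.3 on another chromosome. None of the up peaks of Cdh20, Ctse and Hnmt overlapped an annotated exon.

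Among host genes, the highest down scores were those of Clca1, Aoc1 and Sprr genes. The libraries were of whole uterus, so the cells behind these peaks were not identified. Clca1, which encodes a secreted protein of mucus-producing epithelium, hosted 11 peaks and all 11 were down. Their scores ran from 25.7 to 221.6, and 3 of them exceeded 200: 221.6 and 206.9 in exons and 217.9 in the 3′UTR of the deposited annotation, where the reference transcript has coding sequence. Aoc1, a diamine oxidase that breaks down histamine and polyamines, had peaks of 142.7 in the 3′UTR and of 110.4 and 86.6 in its second exon, beside a weak peak of 1.05 in the 5′UTR. Sprr2b, Sprr1a and Sprr2a2, small proline-rich proteins of the epithelial surface, each hosted a single 3′UTR peak, with scores of 174.4, 58.0 and 30.5. The Sprr2 genes are near-identical copies, so reads could have been split or swapped between them.

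Other genes among the 10 highest down were of mixed function. Fga, the fibrinogen alpha chain, had an exon peak of 40.2. Uox, the urate oxidase gene, had an exon peak of 35.5. Ass1, which makes argininosuccinate for arginine synthesis, had 8 peaks, all down, with scores from 5.42 to 34.1. Of these 8, 7 lay in exons. Zfp810, a zinc finger gene, had a 5′UTR peak of 34.4.

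**Figure D2:**
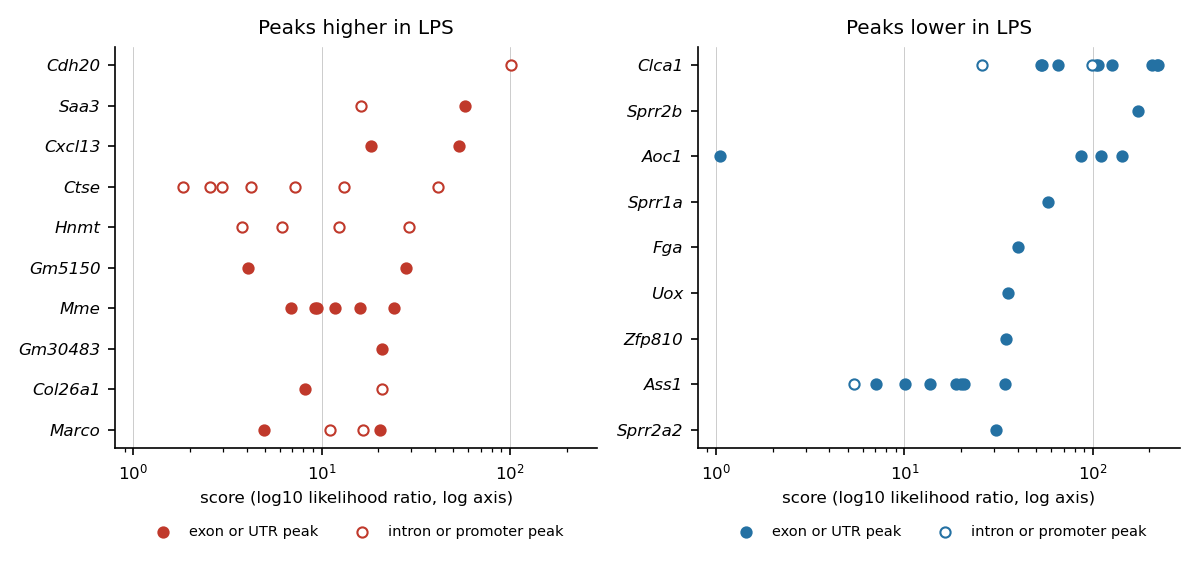
Scores of every peak of the named direction (horizontal, log10 likelihood ratio on a log axis) in the 10 host genes with the highest up score (left, red) and in 9 of the 10 with the highest down score (right, blue) on chromosomes 1 to 9. Filled dots are exon or UTR peaks and open dots are intron or promoter peaks. Clca1 stands out with 11 down peaks between 25.7 and 221.6, and the open dots of Cdh20, Ctse and Hnmt are intron peaks.

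Some of the strongest peaks had no host gene by the rule. The 5 highest down peaks of this kind all lay on chromosome 8 between positions 123425854 and 123432553, between the genes Tubb3 and Def8, with scores of 184.7, 107.8, 98.0, 94.6 and 63.5. Among up peaks without a host, the Saa3 peak of 94.6 was followed by intergenic peaks of 82.0 (chr1:29651822-29652093) and 60.4 (chr5:31330455-31330657). A peak of 62.8 assigned to Ocstamp had its centre on an exon of Slc13a3, a dicarboxylate transporter gene, and a peak of 50.3 assigned to Saal1 overlapped exons of Saa3. Further genes were recovered in this way and were chosen after their values were seen. Sele and Selp, the adhesion molecules by which activated endothelium captures leukocytes, had up peaks of 20.1 and 13.7 on their exons. Il11, a cytokine needed for decidualization, had a down peak of 21.9, and Tmprss11d, an airway-type serine protease, one of 51.9.

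Gene lists chosen for this tissue and treatment were then compared with the background of 48.6% up. Among 29 lists with at least 20 host peaks, 4 lists had at least 75% of their peaks in 1 direction. These were the leukocyte list, which was mostly up, and the lists of secretory epithelium, cell cycle and extracellular matrix, which were mostly down. No test was made for any list.

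**Figure D3:**
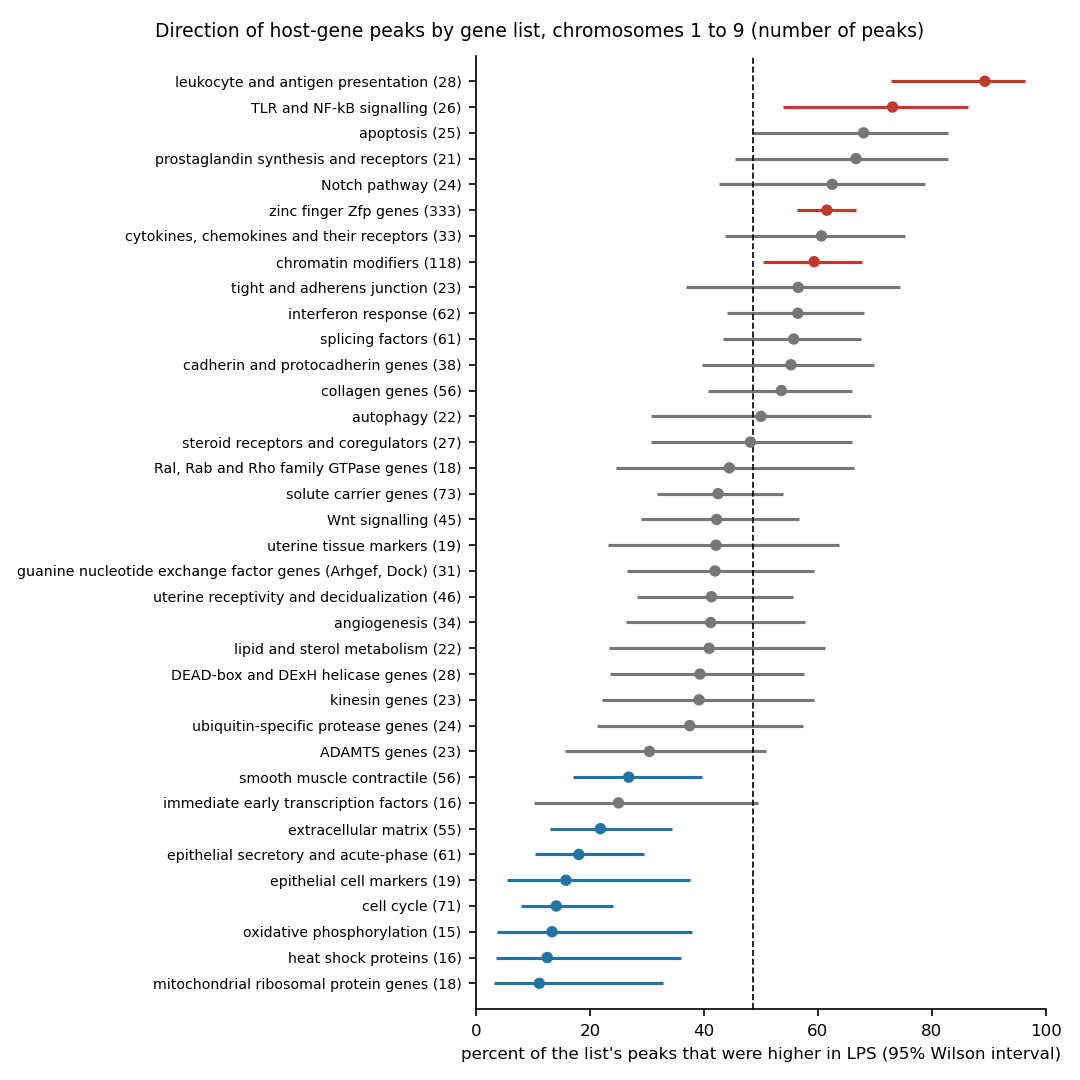
Percent of the host peaks of each gene list that were up (dot) with its 95% Wilson interval (line), for lists with at least 15 peaks on chromosomes 1 to 9 and with the number of peaks in parentheses. The dashed line is the share over all host genes, 48.6%. Red and blue mark intervals wholly above or below it, grey the rest. Leukocyte genes stand at 89.3% and cell cycle genes at 14.1%.

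Genes of secretory epithelium and the acute phase had 50 down peaks and 11 up peaks (18.0% up, interval 10.4 to 29.5%). Of 25 list genes with a peak in any table, 18 had a down peak and 4 had an up peak, and the median score was 7.24 for the down peaks against 2.57 over all down host peaks. Besides Clca1, Aoc1 and the Sprr genes, Lcn2, an iron-trapping defence protein, had 3 down host peaks up to 19.9 and a further down peak of 29.9 on an exon that had been assigned to a neighbour. Ltf, lactoferrin, an estrogen-responsive secretory protein of the uterine epithelium, had 7 down host peaks up to 12.2. Atp6v0d2, a proton pump subunit, had 7 down peaks from 2.43 to 7.33. Saa3, Cp and Hp, which encode acute-phase proteins, were among the 4 genes with up peaks. Cp, which encodes ceruloplasmin, had 4 up peaks of 9.45 and lower. On other chromosomes C3, the central complement component, had 7 up host peaks of up to 7.50.

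Markers of epithelial cells also had more down than up peaks. Of 19 host peaks in this marker list 16 were down and 3 were up, but 9 of the down peaks were those of Ltf and Muc1, which the secretory list holds too. Without these shared genes 7 peaks were down and 3 were up. Elf3, a transcription factor of epithelial cells, had 4 down peaks up to 20.9, Cdh1, E-cadherin, had a down peak of 15.9, and Muc1, a surface mucin, had down peaks up to 7.69. The 3 up peaks were 1 of Ehf, an epithelial transcription factor, at 3.78 and 2 of Foxa2, which marks the glands, up to 2.73. The Ehf score is the one shared by 770 up peaks. Foxa2 had a further up peak of 7.51 on an exon that had been assigned to a neighbour. Further down peaks of this kind lay in Cdh1 and Ltf, and Wnt7a had such peaks in both directions. With the gene whose exon lies at the peak centre, the list had 4 up and 9 down peaks. No host peak was listed for the keratin genes Krt7, Krt8, Krt18 and Krt19 or for Epcam. These genes lie on other chromosomes, where down peaks could not be read. The part of these markers in the down peaks of the secretory list was not tested.

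Cell cycle genes had 61 down peaks and 10 up peaks (14.1% up, interval 7.83 to 24.02%). Of 34 list genes with a peak in any table, 24 had a down peak and 8 had an up peak. Mki67, the proliferation marker, hosted 12 down peaks with scores from 1.23 to 5.03 and 1 up peak. The kinetochore genes Cenpe and Cenpf each hosted 8 down peaks, with scores up to 9.89 and 6.08. The highest down scores of the list were those of Rbl1 (12.1), a pocket protein that restrains the cell cycle, and of the mitotic kinase gene Plk1 (10.1). Chek2, a DNA damage kinase, had the highest up score, 8.03. The median score of the down peaks was 2.65, close to that of all down host peaks.

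Genes for making proteins and for respiration leaned the same way, in smaller numbers. Cytosolic ribosomal protein genes had 10 down peaks and 0 up peaks, with a median score of 1.46. Mitochondrial ribosomal protein genes had 16 down and 2 up peaks, and genes of oxidative phosphorylation had 13 down and 2 up. Heat shock proteins had 14 down and 2 up peaks, with Hspa14 (7.70) and Hspd1 (3.90) highest, and antioxidant genes had 12 down and 2 up.

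The matrix and the muscle of the uterus also had more down than up peaks. Extracellular matrix genes had 43 down and 12 up peaks (21.8% up, interval 12.9 to 34.4%). Postn, periostin, hosted 6 down peaks up to 4.67, Adamts9, a matrix protease, hosted 5 down peaks up to 8.93, and Fmod, fibromodulin, had the highest down score of the list at 10.2. Collagen genes, counted apart, had 30 up and 26 down peaks, so the lean did not extend to them. Contractile genes of smooth muscle had 41 down and 15 up peaks (26.8% up, interval 16.96 to 39.6%). At scores of at least 6 there were 6 peaks left, of which 4 were up. Actg2, smooth muscle actin, hosted 6 down peaks up to 4.03, and Des, desmin, hosted 4 up to 4.75. Pde5a, which breaks down cyclic GMP, had 3 up peaks up to 5.99.

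Leukocyte and antigen presentation genes had 25 up peaks and 3 down peaks (89.3% up, interval 72.8 to 96.3%). Of 17 list genes with a peak in any table, 14 had an up peak and 3 had a down peak. Ptprc, the pan-leukocyte marker CD45, had 4 up peaks up to 3.78. That highest one was an intron peak with the score shared by 770 up peaks, and the next was an exon peak of 3.56. Klrk1, an activating receptor of natural killer cells, had 4 up to 3.97, Ncf1, a subunit of the phagocyte oxidase, had 3 up to 3.72, and Cd38 had a single peak of 8.10. The scores were modest, with a median of 2.71 against 2.82 over all up host peaks. The down peaks included those of Mrc1 (2.09), the mannose receptor of resident macrophages, and Cd8b1 (2.11). On the other chromosomes, where only up peaks could be read, the list had 34 up peaks in 15 genes, led by the class I gene H2-Q4 (11.7) and the integrin gene Itgb2 (8.29). Of the 69 genes of this list, which also serve as leukocyte markers, 33 had a host peak or a peak on an exon. This count includes the other chromosomes, where only up peaks were read, and no share over all genes stands beside it. The part of these markers in the other up peaks was not tested.

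Immunoglobulin genes, a family added after its values were seen, had up peaks only, although down peaks could be read only on chromosomes 1 to 9. On chromosomes 1 to 9 there were 4 up peaks and 0 down peaks, all in kappa chain genes on chromosome 6, the highest in Igkv10-96 (16.3). Elsewhere 50 up peaks fell in 47 heavy and lambda chain genes. Igha, the constant region of IgA, had 3 exon peaks of 42.8, 28.6 and 24.4, and the variable segments Ighv1-19 and Ighv5-16 reached 33.1 and 28.8. These segments resemble each other closely, and the rearranged segments of B cells differ from the reference, so the gene assigned to each read is uncertain.

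Genes of Toll-like receptor and NF-kB signalling, the route by which cells sense LPS, had 19 up and 7 down peaks (73.1% up, interval 53.9 to 86.3%). The kinase gene Ikbke had an up peak of 7.21, Tlr1 had 3 up peaks up to 6.02, and Tlr2, a receptor for bacterial lipoproteins, had 2 up peaks up to 3.30. Tlr4, the LPS receptor itself, had an exon peak up at 2.20 and a 3′UTR peak down at 1.27. Nod2 (10.6) and Tlr6 (9.94) had the highest down scores. On other chromosomes Tlr8 had 5 up peaks up to 13.1 and Tlr7 had 4 up to 10.1. Apoptosis genes had 17 up and 8 down peaks, an interval (48.4 to 82.8%) that includes the background. Casp4, a caspase that binds intracellular LPS, had 3 up peaks up to 12.2, Casp8 had an up peak of 11.3, and Cflar, an inhibitor of caspase 8, had a down peak of 7.70.

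Cytokine and interferon genes were mixed. Cytokines, chemokines and their receptors had 20 up and 13 down peaks, and interferon response genes had 35 up and 27 down (56.5% up). The interferon share was 71.9% (23 of 32 peaks, interval 54.6 to 84.4%) with the gene whose exon lies at the peak centre and 27.3% (3 of 11 peaks, interval 9.75 to 56.6%) at scores of at least 6. Within the interferon list the guanylate-binding protein gene Gbp6 had the highest up score, 13.1. The down side was led by Oasl1 (13.6), Sp140 (11.5) and Ifi211 (9.54). Il1r1, the interleukin 1 receptor, had 3 down peaks up to 8.24 and 1 up peak. The Gbp, Ifi and Oas genes are families of similar copies, with the same limit on the assignment of reads.

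Zinc finger genes of the Zfp series formed the largest family in the tables, with 205 up and 128 down peaks (61.6% up, interval 56.2 to 66.6%). At scores of at least 3 the share was 54.7%, below that interval, against 50.5% over all host peaks at that limit. It was 61.3% at scores of at least 6. Of 187 family members with a peak in any table, 125 had an up peak and 92 had a down peak, and 58 had both. The scores were low, with medians of 2.21 up and 2.62 down. Zfp658 (16.02) and Zfp27 (12.6) were highest among the up peaks, and Zfp970 hosted 5 up peaks up to 12.02. Chromatin modifier genes had 70 up and 48 down peaks (59.3% up, interval 50.3 to 67.8%), and 48.4% were up when peaks were given to the assigned gene. Chd9, a chromatin remodeller, hosted 9 up peaks, 7 of them in its second intron, and Setd2, a histone methyltransferase, hosted 6 up and 1 down. The highest down score of that list was that of Eed (12.5), a subunit of the Polycomb complex PRC2. Hox cluster genes, which set the identity of regions along the body and the reproductive tract, had 7 up and 0 down peaks in 5 genes, the highest being Hoxa4 (4.61).

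Genes of uterine receptivity and decidualization had peaks in both directions. The list had 19 up and 27 down peaks (41.3% up, interval 28.3 to 55.7%), an interval that includes the background. Of its genes, 9 hosted only up peaks, 16 only down peaks and 2 both. Hosting peaks of 1 direction only was also the common case over all host genes, of which 18.8% had both. On the down side, Bmp2, a signal that starts decidualization, had host peaks of 25.3 in the 5′UTR and 11.6 in an exon, and peaks of 19.98 and 11.9 on its exons that had been assigned elsewhere. Ptgs2, which makes prostaglandins at the implantation site, had a single 3′UTR peak of 21.3. Wnt4, also needed by the decidua, had 2 down peaks up to 4.21, and Alpl had down peaks of 15.6, 6.08 and 5.53. On the up side, Lpar3, a lipid receptor needed for embryo spacing, had an exon peak of 12.5 and a 3′UTR peak of 10.1. Msx1, a transcription factor of the receptive epithelium, had 3 up peaks between 7.005 and 8.28, of which 1 was a host peak. Calb1, a calcium-binding protein of the receptive uterus, had 5 up peaks between 4.28 and 19.8, of which 3 were host peaks. All peaks listed here of Bmp2, Ptgs2, Wnt4 and Alpl were down and all of Lpar3, Msx1 and Calb1 were up. Zeb2 had peaks in both directions, an intron peak up at 9.15 and an exon peak down at 8.30. Among prostaglandin genes other than Ptgs2, Hpgds (9.83) and Hpgd (8.02) had the highest up scores.

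The genes that write, erase and read m6A had few and mostly weak peaks. On chromosomes 1 to 9 they had 9 down and 3 up host peaks. Mettl14 hosted no peak, since the peaks assigned to it lay inside Sec24d. Mettl3 lies on another chromosome, where no up host peak was listed for it and down peaks could not be read. Ythdc1, the nuclear reader, had an exon peak down at 13.2 and an exon peak up at 1.90 in the deposited annotation. In the reference annotation used for exon positions, neither of these peaks was placed on an exon of Ythdc1. Ythdf1 had 3 down host peaks up to 1.83, Ythdf2 a down peak of 2.57, and Ythdf3 had up peaks of 1.90 and 1.28. Peaks on exons of these genes that had been assigned to a neighbour were down in Zcchc4, an RNA methyltransferase, at 9.49 and in the writer component Virma at 1.86. Others were up in Ythdc1 at 1.44 and, on another chromosome, in Zc3h13 at 4.11 and 1.35, and down in Ythdf1 at 1.28. Fto had an intron peak down at 3.63, the score shared by 735 peaks. Elavl1, a stabilizing RNA-binding protein, had an intron peak down at 7.10, and exon peaks were down in Hnrnpa2b1 at 2.22 and in Rbm15b at 1.82. On the other chromosomes Alkbh5 (1.41), Mettl16 (1.39), Wtap (1.90), Cbll1 (3.46), Zc3h13 (2 peaks up to 2.08), Ythdc2 (3.27), Igf2bp2 (1.20), Eif3a (1.16) and Prrc2a (1.31) had up host peaks, and down peaks could not be read there. Inflammation, autophagy and apoptosis genes chosen for PCR by the study were looked up as well. Of these, Atg7 had an intron peak down at 2.59. Atg5 had an intron peak up at 2.33 and an up peak of 1.89 on its 3′UTR that had been assigned to a neighbour. Rela had an intron peak up at 1.46. Both Atg5 and Rela lie outside chromosomes 1 to 9, so their directions cannot be set against that of Atg7. Bcl2 had 2 up peaks, of 2.49 and 1.81, on its 3′UTR.

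In a minority of host genes, peaks of opposite direction lay in the same gene. Of 4980 host genes on chromosomes 1 to 9, 934 had both an up and a down peak (18.8%, interval 17.7 to 19.9%). In 923 of them the strand was known, and the highest up peak lay 5′ of the highest down peak in 435 (47.1%, interval 43.9 to 50.4%). Their centres were a median of 9896 bases apart, and in 3 genes they were within 200 bases. Among 178 genes with 5 or more peaks, 26 had only up peaks, 26 had only down peaks and 126 had both. Tent4b, a poly(A) polymerase, had the highest pair, an exon peak up at 13.7 and another exon peak down at 12.9. It was followed by Cdc73 (15.7 up and 10.9 down), Med13l (8.75 and 9.18), Cald1 (13.3 and 8.42) and Zeb2. In Med13l both peaks lay in the same exon, with centres 395 bases apart. Synpo2, which encodes an actin-bundling protein of muscle, had the most peaks of any gene, 7 up and 10 down.

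Other genes with many peaks ranged from mixed directions to all peaks in 1 direction. The most up peaks, 12, were given to Gm4724, a predicted gene, beside 2 down peaks. These up peaks were spread from position 175419636 to position 175691162 of chromosome 2. Some were assigned to Zfp965 or overlapped exons of Gm11007, and none overlapped a Gm4724 exon in the reference annotation. Whether 1 gene holds them all is therefore uncertain. Kcnq1ot1, a long noncoding RNA that silences an imprinted cluster, had 8 up and 5 down peaks, and Akap9 had 7 up and 4 down. Map1a, a microtubule-associated protein, had 10 down peaks and 1 up peak, and its highest score was 15.04. All peaks were down in Clca1, Ass1, Olfm1 (8 peaks), Sec24d (8 peaks) and Synm (8 peaks), of which the last 3 were chosen after their values were seen.

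**Figure D4:**
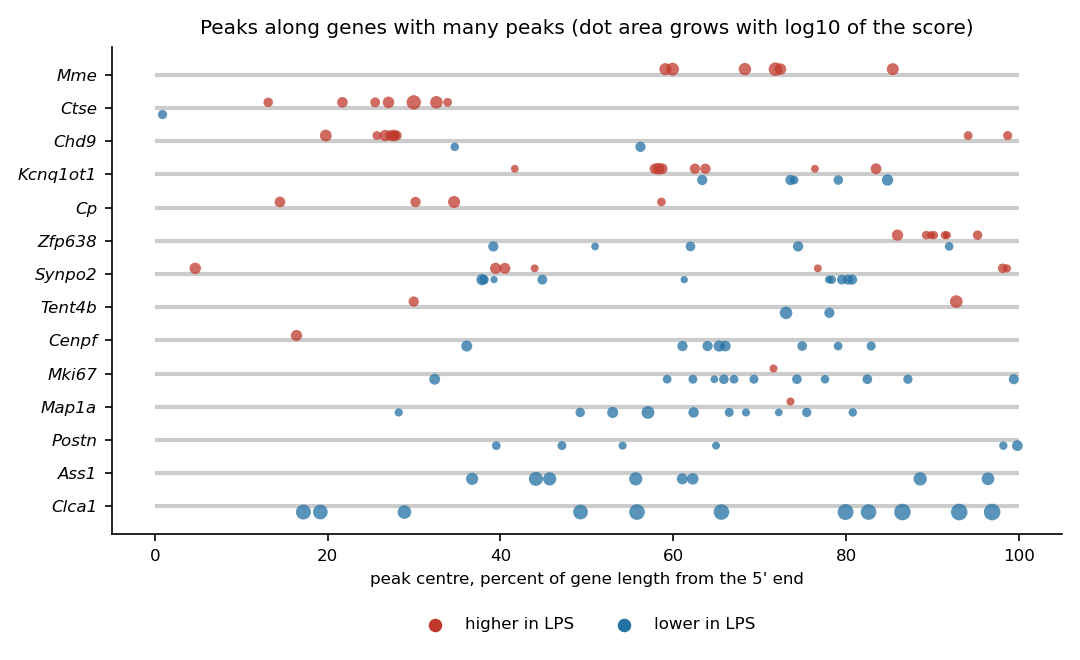
Position of each peak centre along its host gene (horizontal, percent of the gene length from the 5′ end) in 14 genes with several peaks, red above the line for up and blue below it for down. The area of a dot grows with the log10 of its score. Mme and Cp hold only up peaks, Clca1, Ass1 and Postn hold only down peaks, and Synpo2 and Kcnq1ot1 hold both.

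Over all scores the shares of up and down peaks in exons, 3′UTRs and introns were close in the deposited annotation. In that annotation 35.4% of up and 37.5% of down peaks were in exons, 21.01% and 21.9% in 3′UTRs, and 18.8% and 18.6% in introns. Intergenic peaks made up 13.5% of up peaks (interval 12.7 to 14.4%) and 9.87% of down peaks (9.16 to 10.6%). At scores of at least 10, with 223 up and 262 down peaks, the shares lay further apart. There 3′UTRs held 12.6% of up peaks (interval 8.83 to 17.5%) and 22.1% of down peaks (17.5 to 27.5%), introns 26.01% and 17.6%, and intergenic regions 23.8% (18.7 to 29.8%) and 11.5% (8.14 to 15.9%). Among exon peaks, 28.7% of up and 16.9% of down peaks were in the last of several exons, and 4.58% and 9.20% were in genes with a single exon. Without the Zfp genes, whose zinc fingers are encoded in a long last exon, the shares in the last exon were 25.6% and 15.2%.

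Placing each centre on a reference transcript gave a related difference. Where the centre lay on an exon of exactly 1 coding gene, 55.1% of 2346 up peaks (interval 53.1 to 57.1%) and 45.1% of 2212 down peaks (43.1 to 47.2%) were in the coding sequence. For the 3′UTR the shares were 43.1% up and 53.2% down. Without the Zfp genes the 3′UTR shares were 44.7% and 54.4%. The exon under the peak was long in both directions, with at least 400 bases in 88.8% of up and 86.2% of down peaks, and with median lengths of 1979 and 1484 bases. Transcripts under up peaks were longer too, with medians of 4147 and 3424 bases.

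**Figure D5:**
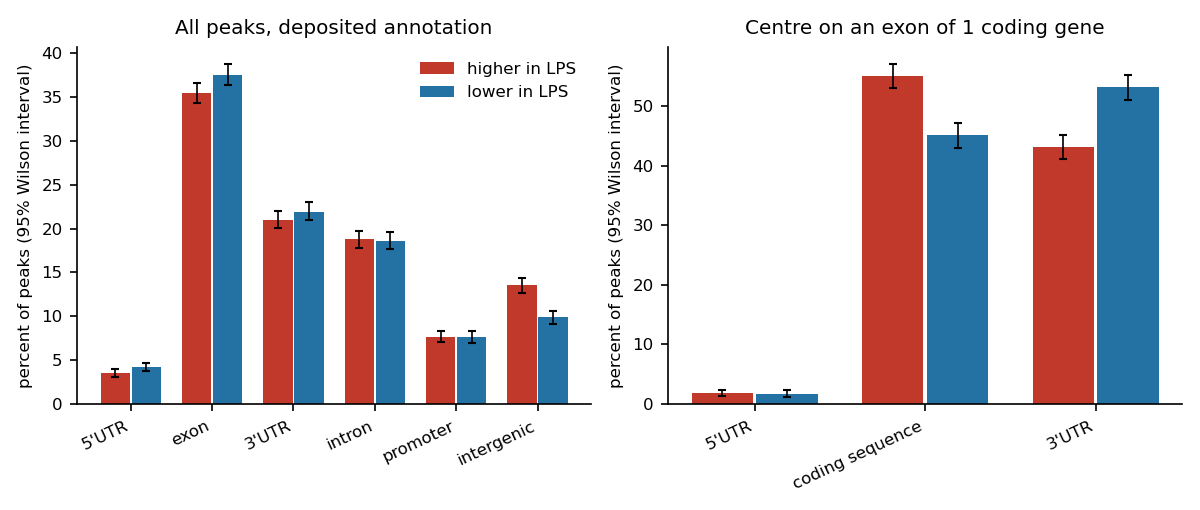
Percent of up (red) and down (blue) peaks on chromosomes 1 to 9 by annotated feature, with 95% Wilson intervals as error bars. On the left are all peaks by the deposited annotation, and on the right peaks whose centre lies on an exon of 1 coding gene, by reference transcript. On the right, up peaks have the larger share in coding sequence (55.1% against 45.1%) and down peaks in the 3′UTR (53.2% against 43.1%).

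The m6A consensus was about equally frequent near up and down peaks. In the 100 bases 5′ of the centre, on the strand of the gene, there were 26.1 matches per kilobase in 2625 up windows and 25.3 in 2509 down windows, against 20.4 over all coding transcripts of these chromosomes. At least 1 match lay in 95.2% of up and 94.1% of down windows, and in 86.0% of all windows of this length. The shorter motif GGAC, part of which overlaps that consensus, lay in 43.9% of up and 44.9% of down windows and in 32.1% of all windows. The ratio of the match rate in up to that in down windows was 1.03 (interval 0.999 to 1.07).

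Mice given melatonin as well as LPS were compared by the authors with the LPS mice, and both comparisons use the same LPS libraries. Values in the second comparison are given for members with high scores, first where the direction turned and then where it did not. The share of all peaks that overlap one of the second comparison is not given here, so these members are examples only. The Cdh20 intron peak (101.7 up in LPS) overlapped a peak of 102.8 that was lower in Mel+LPS, and the Il17rb peak (62.8) overlapped one of 13.0. The highest Ctse peak (41.4) overlapped one of 6.29, and the Cxcl13 3′UTR peak (53.7) one of 1.59. The Saa3 peak of 94.6, assigned to Saal1, overlapped one of 1.93. Among down peaks, the 3 strong peaks of Aoc1 (142.7, 110.4 and 86.6) overlapped peaks of 39.5, 20.9 and 4.99 that were higher in Mel+LPS. The intergenic peaks between Tubb3 and Def8 overlapped peaks of 125.1 and 154.9 that were higher in Mel+LPS, and the Il11 peak (21.9) overlapped one of 27.3. Cdh1 (15.9) overlapped one of 11.8, and the 5′UTR peak of Bmp2 (25.3) one of 5.65. For the 11 Clca1 peaks, the host peaks of Sprr2b, Sprr1a and Ptgs2 and the second-exon peak of Saa3 (57.7), no overlapping peak was listed in either direction. Peaks in the same direction in both comparisons were found as well. Marco up peaks of 16.5 and 11.05 overlapped peaks of 1.19 and 1.16 that were higher in Mel+LPS. Down peaks of Lcn2 (7.42), Muc1 (7.69) and Sprr2f (17.1) overlapped peaks of 2.72, 1.81 and 4.74 that were lower in Mel+LPS.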

How the data were processed

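m6A-seq was done on uterus of Veh, LPS and Mel+LPS mice, with input and IP libraries. Per the labels, reads were processed with STAR 2.5.2a, MACS2 3.4, ChIPseeker 1.22.1 and HOMER 4.10 on the mm10 build. The authors deposited differential peaks with 1 score per peak (a log10 likelihood ratio), pooled over replicates. Read depth and counts were not given in the sources used here, so no test was possible and the precision of single scores is unknown. The incomplete last row of the down table was dropped, and no column of per-sample values was left out.

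Host genes, gene lists (51, with symbols matched to RefSeq names of GRCm38.p6), exon positions and motifs (GENCODE M21 transcripts, same build) were computed in Python 3 with pandas and scipy, in functions tested on simulated data. The members and lists were chosen with earlier results of these data known. Named genes were the 10 highest per direction, the 5 highest up on other chromosomes, the 5 with most peaks, the 5 highest with both directions, the 5 highest peaks with no host, up to 4 members per list and direction, and all m6A regulators and PCR genes with a peak. Alternatives are given at the end. Actg2, Alpl, Atp6v0d2, Des, Il11, Lcn2, Muc1, Ncf1, Olfm1, Postn, Sec24d, Sele, Selp, Setd2, Synm, Tlr2, Tmprss11d and Wnt4 fall outside that rule and were chosen after their values were seen. A few genes that the rule names are not reported here.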

Additional observations from a re-analysis of the deposited data

How the results depend on the processing

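No paired analysis was possible because the tables hold 1 score per peak and comparison and no replicate values, and leaving out replicates could not be done for the same reason. The share of peaks that were up was 51.7% at scores of at least 3 and 53.6% at scores of at least 6. Those limits left 1554 and 539 genes with an up peak, 1550 and 464 with a down peak, and 356 and 43 with both. Genes with both numbered 1441 with the gene as assigned in the deposited annotation and 439 with the gene whose exon lies at the centre. In the latter case the up peak lay 5′ of the down peak in 52.6%, the opposite side of equal shares. With 1 peak per gene the median score of up peaks exceeded that of down peaks by 0.598. Lists with at least 75% of peaks in 1 direction numbered 2 and 1 at those score limits (of 11 and 2 lists left), 7 with the assigned gene and 7 with the gene with most exon bases under the peak, an alternative chosen after seeing the data. With the centre moved by 100 bases the 3′UTR share was 36.6% for up and 46.0% for down peaks. The ratio of GGAC rates in up to down windows was 0.983. The causes of these moves were not tested. Of 174 list values recomputed, 149 stayed within the interval of the reported value and 25 left it. Of the 174, 17 values in 13 lists fell on the other side of equal shares, and 0 of these were in the 4 lists with at least 75% of peaks in 1 direction. At scores of at least 6 the smooth muscle list was 66.7% up (4 of 6 peaks) and the interferon list 27.3% up (3 of 11 peaks), and with the assigned gene the chromatin list was 48.4% up. Read depth is unknown, so weak scores cannot be graded further.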
